A study of Arabidopsis thaliana with 24 samples.

Results

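The small auxin up RNA (*SAUR*) family was described through 57 loci of Arabidopsis out of 33977 gene identifiers counted in the series. The loci were chosen by their family name, though with earlier results of these data known. The data were counts of 3′Tag-Seq reads, which come from near the 3′ end of each transcript, in 24 libraries with 3 replicates in each of 8 groups. The groups were WT (Col-0, the reference accession) and the *hy5* mutant (*hy5-215* in the study's text), shoots and roots apart, at 22 °C or 28 °C. All seedlings were raised at 22 °C in white light on medium without sucrose, 5 days by the labels, and then spent 4 h in continuous white light at 22 °C or 28 °C. The sources disagree on these conditions, since the design text gives 24 h for the treatment and the study's text seedlings of 6 days and another light intensity. The labels call the aerial tissue hypocotyl, whereas the study's text gives hypocotyl and cotyledon, so it is called shoot here. The genotype field of the labels is WT for every shoot library and *hy5* for every root library, against the titles, and the titles were followed. *HY5* itself was lower but not absent in the mutant. It had 45.5, 49.5 and 63.04 counts per 1000000 (CPM) in the Col-0 root libraries at 22 °C against 12.9, 17.4 and 10.4 in those of *hy5*, and 50.2, 52.02 and 44.9 against 10.1, 10.1 and 8.02 at 28 °C. In the shoot it had 31.4, 25.3 and 32.9 CPM in Col-0 and 18.7, 19 and 24.7 in *hy5* at 22 °C, and 21.7, 14.95 and 18.2 against 14.3, 7.99 and 14.9 at 28 °C, so each mutant library lay below each Col-0 library at both temperatures in both tissues. The difference passed the test in the root (log2 -1.92 at 22 °C and -2.35 at 28 °C, adjusted p = 3.75e-07 and 3.95e-10) and not in the shoot. A count of *HY5* reads does not show whether the transcript is functional.

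*SAUR* genes are among the most quickly auxin-induced genes of plants, and most encode short proteins from a single exon. Their products bind and inhibit PP2C.D phosphatases, which otherwise keep plasma membrane H+-ATPases dephosphorylated and less active. The resulting acidification of the cell wall lets cells expand, and the *SAUR19* subfamily is known for this role in the hypocotyl. PIF4, a basic helix-loop-helix factor of warmth responses, raises auxin synthesis and binds some *SAUR* promoters directly. HY5 is a bZIP factor of light signaling that binds motifs with an ACGT core.

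The loci fell into 6 tandem arrays with 31 members in all and 26 dispersed genes. The arrays were *SAUR19* to *SAUR24* on chromosome 5 (6 genes), the *SAUR62* array on chromosome 1 (7), *SAUR26* to *SAUR29* on chromosome 3 (4), *SAUR13* to *SAUR16* (4) and the *SAUR1* array (7) on chromosome 4, and *SAUR6*, *SAUR7* and *SAUR12* on chromosome 2 (3). By the TAIR10.1 annotation, 52 of the 57 had a single exon, and coding lengths ran from 261 to 570 bases. Coding identity between pairs was 87.7% to 95.2% in the *SAUR19* array, 77.7% to 86.3% in the chromosome 3 array and 45.4% to 89.3% in the chromosome 1 array. It was lower in the *SAUR13* array (50% to 68.6%), the *SAUR1* array (41.1% to 62.4%) and the chromosome 2 array (39.96% to 53.99%). In the last 400 bases of the transcript, 8 members held a 50-base word found elsewhere in the genome, at most 15.7% of the words (*SAUR19*), and none held a repeated 100-base word. How reads that match several copies were counted is not given in the sources used here, so values of single *SAUR19* array members are less certain than the sum of the array. By annotation 5 members overlapped a gene on the opposite strand (*SAUR7*, *SAUR13*, *SAUR31*, *SAUR63* and *SAUR64*), and *SAUR6* and *SAUR7* overlapped each other on the same strand. Whether counting used the strand is not given either.

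Promoters of members that the results below turn on are shown to let their motifs be compared. Each is the 250 bases before the annotated transcript start, read from the RefSeq TAIR10.1 genome on the strand of the gene. Capitals mark CACATG, an E-box form that PIF factors bind, TGTCTC, the auxin response element, and CACGTG, the G-box, each also as its reverse complement. The first pair comes from the *SAUR19* array, the second from the chromosome 1 array, and the last pair shows dispersed members that moved in opposite directions in the warm Col-0 shoot.
*SAUR19* (chr5:5963406-5963655, minus strand): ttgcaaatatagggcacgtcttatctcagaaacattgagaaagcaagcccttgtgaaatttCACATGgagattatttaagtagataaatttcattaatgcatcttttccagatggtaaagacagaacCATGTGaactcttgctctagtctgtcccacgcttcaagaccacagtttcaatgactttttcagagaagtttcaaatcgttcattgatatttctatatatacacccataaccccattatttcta
*SAUR22* (chr5:5975088-5975337, minus strand): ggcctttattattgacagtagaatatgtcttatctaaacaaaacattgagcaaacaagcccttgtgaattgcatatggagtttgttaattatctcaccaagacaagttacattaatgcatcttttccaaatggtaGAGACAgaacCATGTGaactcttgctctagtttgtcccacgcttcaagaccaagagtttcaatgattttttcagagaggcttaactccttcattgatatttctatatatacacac
*SAUR63* (chr1:10305109-10305358, minus strand): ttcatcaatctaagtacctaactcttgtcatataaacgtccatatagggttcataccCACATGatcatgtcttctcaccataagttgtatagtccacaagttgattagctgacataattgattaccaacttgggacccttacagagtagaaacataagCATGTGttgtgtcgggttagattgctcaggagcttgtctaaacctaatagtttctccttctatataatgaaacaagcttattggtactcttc
*SAUR66* (chr1:10320761-10321010, plus strand): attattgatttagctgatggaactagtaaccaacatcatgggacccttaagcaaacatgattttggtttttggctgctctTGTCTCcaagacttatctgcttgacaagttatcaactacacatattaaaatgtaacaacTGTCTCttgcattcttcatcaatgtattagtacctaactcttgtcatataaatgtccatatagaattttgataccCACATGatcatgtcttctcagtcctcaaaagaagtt
*SAUR36* (chr2:18641313-18641562, plus strand): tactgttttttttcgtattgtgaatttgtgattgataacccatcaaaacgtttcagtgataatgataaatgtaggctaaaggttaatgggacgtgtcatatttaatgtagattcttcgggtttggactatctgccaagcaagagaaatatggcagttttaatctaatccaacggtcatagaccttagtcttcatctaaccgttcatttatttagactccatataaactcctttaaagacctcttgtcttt
*SAUR72* (chr3:4079628-4079877, minus strand): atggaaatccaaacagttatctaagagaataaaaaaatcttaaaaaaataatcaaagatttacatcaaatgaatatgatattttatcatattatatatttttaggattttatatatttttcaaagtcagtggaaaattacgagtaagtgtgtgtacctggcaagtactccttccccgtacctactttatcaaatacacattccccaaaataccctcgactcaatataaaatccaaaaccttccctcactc

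CACATG on either strand was present in 26 of the 57 member promoters (45.6%), against 3043 of 27443 promoters of the same length genome-wide (11.1%). It was found in 22 of the 31 array members and in 4 of the 26 dispersed ones, including all 7 of the chromosome 1 array, all 4 of the chromosome 3 array and 3 of the 6 *SAUR19* array genes. Array members are related in sequence, so their promoters are not independent. TGTCTC was in 7 member promoters (12.3%) against 10.95% genome-wide, and the G-box in 1, that of *SAUR59* (AT3G60690), against 6.49%. The ACGT core, which lies within the G-box, was in 21 members (36.8%) against 44.1% genome-wide. A match of letters does not show that a factor binds there.

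Total counts ran from 1212281 to 3781032 per library, with the lowest totals in the Col-0 root at 22 °C. Levels are given as CPM scaled over all 24 libraries, and a group whose libraries each held at most 3 counts of a gene was taken to be at the floor. Of the 57 members, 45 passed the filter on low counts in at least 1 comparison, 12 passed in none, and *SAUR2* (AT4G34780) and *SAUR39* (AT3G43120) had no count in any library. In comparisons within a tissue, 26 members passed in the shoot alone, 7 in the root alone and 12 in both. A member that passed through the group where it is high had to differ, so the counts below refer to members tested, not to the family. Photosynthetic marker genes summed to between 36983 and 64427 CPM in shoot libraries and to between 375 and 916 CPM in root libraries. Root marker genes summed to between 235 and 668 CPM in root libraries, lowest in replicate 3 of the Col-0 root at 22 °C, and to between 34.3 and 66.7 CPM in shoot libraries. One root marker, *NRT2:1*, was at 0 in 7 of the 8 groups.

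The response of the WT shoot to 28 °C was mainly a rise of array members. Of 36 members tested in Col-0, 16 rose and 2 fell at an adjusted p of at most 0.05 and at least 2-fold, whereas over all 15697 genes tested 2.15% rose and 3.15% fell. The 16 that rose were all 6 of *SAUR19* to *SAUR24*, 5 of the chromosome 1 array, *SAUR1*, *SAUR13*, *SAUR29*, *SAUR32* and *SAUR36*, and those that fell were *SAUR12* and *SAUR72*. By the adjusted p alone 23 members passed, 20 of them higher, where 25.0% of all genes did. The median log2 fold change of the 36 members was 0.53 against 0.01 for all genes. Levels did not overlap between the temperatures for 25 of the 36, against 38.4% of all genes. The summed family level rose from 713 ± 49.99 to 1006 ± 68.9 CPM (SD, n = 3). The 13 members that passed neither threshold had log2 fold changes between -0.86, in *SAUR7* (AT2G21200), and 0.52, in *SAUR15* (AT4G38850). Among them *SAUR4* (AT4G34800), *SAUR49* (AT4G34750) and *SAUR71* (AT1G56150) were at -0.58, -0.27 and -0.52, and *SAUR51* (AT1G75580) at 0.15. In these bulk tissues, fewer cells of a type and less RNA per cell cannot be told apart.

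*SAUR19* to *SAUR24*, whose products promote cell expansion in the hypocotyl, moved together (the plot of this array by library). Their summed level was 23.6, 28.8 and 19.4 CPM in the 3 Col-0 shoot libraries at 22 °C and 62.3, 80.3 and 100.1 at 28 °C, with means of 23.9 ± 4.69 and 80.9 ± 18.9 CPM (SD, n = 3). *SAUR22* (AT5G18050) had the largest fold change of the family, with 1.72, 2.58 and 2.11 CPM at 22 °C and 9.69, 10.7 and 19.5 at 28 °C (log2 fold change 2.61, SE 0.39, adjusted p = 1.64e-05). Every warm library was above every control library. *SAUR19* (AT5G18010) had 2.15, 3.86 and 2.53 CPM at 22 °C and 10.6, 10.3 and 15.6 at 28 °C (log2 fold change 2.07, SE 0.36, adjusted p = 9.10e-05). *SAUR20* (AT5G18020) had 3.44, 4.29 and 2.95 and 13.4, 12.8 and 18.2 CPM (log2 fold change 2.04, SE 0.32, adjusted p = 2.46e-05). Neither of these overlapped between the temperatures. *SAUR21* (AT5G18030) had 6.88, 5.15 and 5.48 CPM at 22 °C and 11.1, 20.5 and 20.8 at 28 °C (log2 fold change 1.58, SE 0.29, adjusted p = 2.12e-04). *SAUR23* (AT5G18060) had 4.299, 5.15 and 2.11 and 9.69, 9.83 and 14.7 CPM (log2 fold change 1.56, SE 0.35, adjusted p = 0.00156). *SAUR24* (AT5G18080) had 5.16, 7.73 and 4.22 and 7.85, 16.2 and 11.3 CPM (log2 fold change 1.05, SE 0.33, adjusted p = 0.0194). In *SAUR24* the lowest warm library was only just above the highest control library, and its call was lost without Col-0 22 °C replicate 1 (log2 0.99, adjusted p = 0.0725), 22 °C replicate 3 (0.87, 0.0994) or 28 °C replicate 2 (0.75, 0.177), and with DESeq2 (1.06, 0.0692). In the root each of the 6 genes had 0 to 2 counts in every library.

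**Figure D1:**
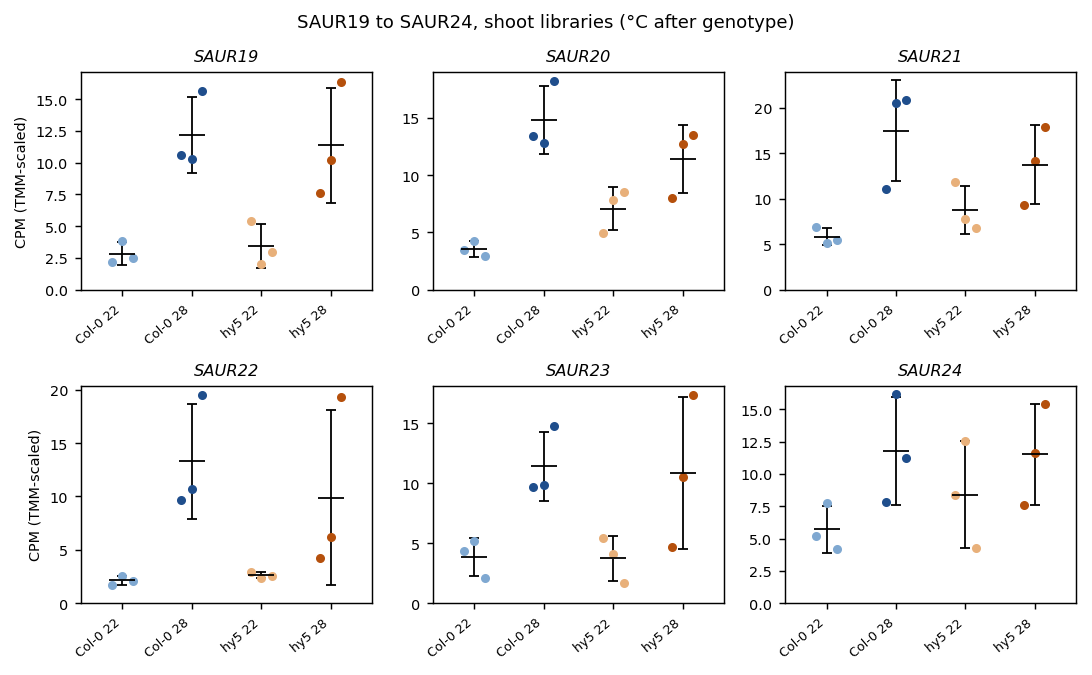
Levels (CPM on one scale over 24 libraries, linear axis) of the 6 *SAUR19* array genes in shoot libraries, by genotype and temperature in °C. Points are libraries, the horizontal line is the mean and bars are the SD of 3; in Col-0 each gene lies higher in all 3 libraries at 28 °C than at 22 °C, while in *hy5* the libraries at 28 °C spread widely.

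In the chromosome 1 array, which holds *SAUR63*, a promoter of hypocotyl elongation, 5 of the 6 members tested rose (the plot of the chromosome 1 array). The summed level was 58.5, 43.4 and 48.1 CPM at 22 °C and 93.7, 99.1 and 128 at 28 °C. *SAUR65* (AT1G29460) had 7.31, 3.86 and 7.59 CPM at 22 °C and 13.8, 16.7 and 25.6 at 28 °C (log2 fold change 1.57, SE 0.29, adjusted p = 2.41e-04). *SAUR64* (AT1G29450) had 5.59, 2.58 and 3.37 and 15.7, 5.98 and 11.3 CPM (log2 fold change 1.49, SE 0.38, adjusted p = 0.00505). In *SAUR64* the groups were separated by a small gap. *SAUR63* (AT1G29440) had 9.03, 6.87 and 4.64 CPM at 22 °C and 14.8, 22.2 and 18.6 at 28 °C (log2 fold change 1.43, SE 0.27, adjusted p = 2.66e-04). *SAUR66* (AT1G29500) had 12.5, 10.7 and 12.2 and 20.8, 21.4 and 37.3 CPM (log2 fold change 1.16, SE 0.23, adjusted p = 5.71e-04). *SAUR62* (AT1G29430) had 8.17, 4.29 and 8.01 and 15.2, 16.2 and 12.1 CPM (log2 fold change 1.08, SE 0.28, adjusted p = 0.00581). None of the 5 overlapped between the temperatures, and the sixth tested gene did. This was AT1G29510, with 15.9, 15.03 and 11.8 CPM at 22 °C and 12.5, 14.5 and 21.2 at 28 °C (log2 fold change 0.17, SE 0.24, adjusted p = 0.646). *SAUR66* fell under 2-fold without Col-0 28 °C replicate 3 (log2 0.83, adjusted p = 0.0104). *SAUR62* did so without 22 °C replicate 2 (0.83, adjusted p = 0.0504) or 28 °C replicate 2 (0.99, adjusted p = 0.0387). AT1G29490 had at most 5 counts in any library and was not tested. Root libraries held 0 to 3 counts of *SAUR62* to *SAUR65* and 0 to 5 of *SAUR66*.

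**Figure D2:**
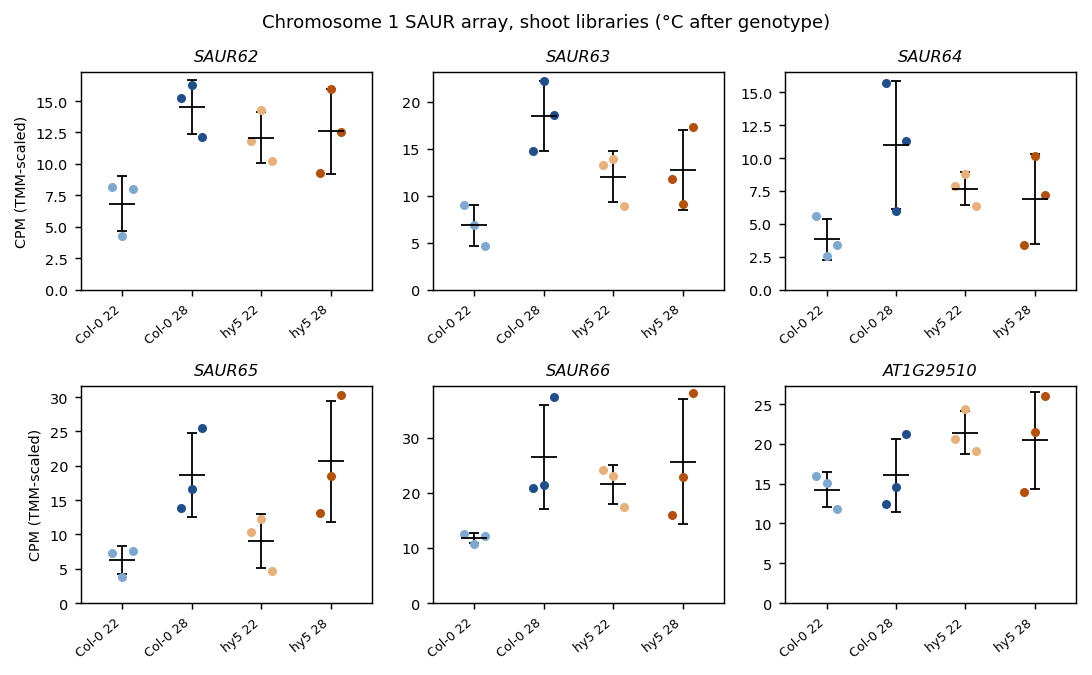
Levels (CPM, linear axis) of 6 genes of the chromosome 1 array in shoot libraries by genotype and temperature in °C, with points for libraries and the mean and SD of 3. In *hy5* at 22 °C, *SAUR62*, *SAUR64*, *SAUR66* and AT1G29510 lie above all Col-0 libraries at that temperature.

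The other arrays changed in single members. In the chromosome 3 array, a group known for natural variation in growth at warm temperature, *SAUR29* (AT3G03820) had 3.87, 4.29 and 4.22 CPM at 22 °C and 8.31, 8.97 and 12.6 at 28 °C (log2 fold change 1.26, SE 0.33, adjusted p = 0.00615). *SAUR26* (AT3G03850) had a log2 fold change of 0.25 (adjusted p = 0.729). In the *SAUR13* array, *SAUR13* (AT4G38825) had 4.299, 7.73 and 3.37 and 8.77, 10.7 and 14.3 CPM (log2 fold change 1.13, SE 0.33, adjusted p = 0.0138). Its neighbour *SAUR14* (AT4G38840), known with *SAUR16* and *SAUR50* from light-driven cotyledon opening, had 61.9, 50.7 and 56.9 CPM at 22 °C and 95.1, 78.2 and 73.2 at 28 °C, a rise of less than 2-fold (log2 fold change 0.53, SE 0.13, adjusted p = 0.00254). *SAUR16* (AT4G38860) overlapped between temperatures (log2 0.07, SE 0.12). In the *SAUR1* array, *SAUR1* (AT4G34770) had 3.01, 3.86 and 1.69 CPM at 22 °C and 7.85, 7.26 and 6.93 at 28 °C (log2 fold change 1.35, SE 0.39, adjusted p = 0.011), and *SAUR50* (AT4G34760) rose by less than 2-fold (log2 0.47, adjusted p = 0.0110). On chromosome 2 the neighbours went opposite ways. *SAUR12* (AT2G21220) had 6.45, 9.88 and 9.28 CPM at 22 °C and 3.69, 5.98 and 2.599 at 28 °C (log2 fold change -1.05, SE 0.36, adjusted p = 0.0337). *SAUR6* (AT2G21210), one of the most counted members in the shoot, had 158, 129 and 147 and 179, 188 and 173 CPM (log2 fold change 0.31, SE 0.10, adjusted p = 0.0282). These single calls were the less stable ones. *SAUR29* was lost without 28 °C replicate 3 (log2 1.05, adjusted p = 0.0519) and *SAUR1* without 22 °C replicate 3 (1.08, adjusted p = 0.0806). *SAUR13* was lost without 22 °C replicate 1 (1.03, adjusted p = 0.0636), 22 °C replicate 3 (0.89, 0.0871) or 28 °C replicate 3 (0.92, 0.0827). *SAUR12* was lost without 22 °C replicate 2 or 3 (-0.94 and -0.99) or 28 °C replicate 1 or 3 (-0.97 and -0.81), with adjusted p from 0.0653 to 0.154. With DESeq2 *SAUR1*, *SAUR13* and *SAUR12* were also lost (adjusted p = 0.0593, 0.0523 and 0.126).

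Of the 11 dispersed members tested in the Col-0 shoot, 2 rose and 1 fell. *SAUR32* (AT2G46690), known from maintenance of the apical hook, had 26.2, 27.9 and 27.4 CPM at 22 °C and 52.6, 58.1 and 61.5 at 28 °C (log2 fold change 1.07, SE 0.14, adjusted p = 2.40e-06). *SAUR36* (AT2G45210), known as a leaf senescence gene, had 8.17, 14.2 and 8.86 and 28.2, 14.95 and 34.2 CPM (log2 fold change 1.3, SE 0.27, adjusted p = 7.23e-04). Both rose without overlap, *SAUR36* with a narrow gap. *SAUR72* (AT3G12830), of the *SAUR41* subfamily, had 31.8, 40.4 and 34.6 CPM at 22 °C and 10.2, 10.7 and 11.3 at 28 °C (log2 fold change -1.73, SE 0.19, adjusted p = 2.03e-07), the largest fall among the members tested. *SAUR78* (AT1G72430), which is known to bind ethylene receptors, had 119, 84.2 and 83.9 and 145, 172 and 206 CPM, a rise of less than 2-fold (log2 fold change 0.86, SE 0.13, adjusted p = 2.28e-05). Of the 18 Col-0 calls, 11 held in all 13 alternative settings, namely *SAUR19* to *SAUR23*, *SAUR32*, *SAUR36*, *SAUR63* to *SAUR65* and *SAUR72*. CACATG was present in 11 of the 16 promoters of members that rose, in 7 of the 20 tested that did not rise 2-fold, and in 8 of the 21 not tested. These counts are a description, since array members are not independent. Beside these changes, the sum of the 6 photosynthetic markers in the Col-0 shoot went from between 47119 and 52467 CPM at 22 °C to between 36983 and 47444 at 28 °C, and that of the 8 root markers from between 34.3 and 44.7 to between 50.4 and 66.7 CPM. By the adjusted p alone, *LHCB2.1* and *LHCA1* were higher at 28 °C (log2 0.36 and 0.82) and *RBCS1A* lower (-0.62). The photosynthetic markers thus did not fall together. The part of the markers in the rise of members was not tested.

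In the *hy5* shoot fewer members passed the same thresholds. Of 37 tested, 4 rose and 1 fell, where 1.77% of all genes rose and 1.82% fell. By the adjusted p alone 8 passed, against 16.9% of all genes. The median log2 fold change was 0.11 against 0.01 for all genes, and levels did not overlap for 10 of the 37 against 32.2% of all genes. All 5 were also called in Col-0, which is 27.8% of the 18 calls there. *SAUR22* had 2.95, 2.38 and 2.55 CPM at 22 °C and 4.21, 6.17 and 19.3 at 28 °C (log2 fold change 1.86, SE 0.50, adjusted p = 0.0106). *SAUR19* had 5.402, 2.04 and 2.98 and 7.58, 10.2 and 16.4 CPM (log2 fold change 1.75, SE 0.39, adjusted p = 0.00239). In both, the highest warm value was in replicate 3. *SAUR23* had 5.402, 4.07 and 1.7 CPM at 22 °C and 4.63, 10.5 and 17.3 at 28 °C, with overlapping groups (log2 fold change 1.52, SE 0.43, adjusted p = 0.0153). *SAUR65* had 10.3, 12.2 and 4.68 and 13.1, 18.5 and 30.4 CPM (log2 fold change 1.14, SE 0.30, adjusted p = 0.0104). *SAUR12* was the member that fell, from 6.38, 7.81 and 8.5 to 2.11, 3.27 and 3.85 CPM (log2 fold change -1.3, SE 0.37, adjusted p = 0.0171). *SAUR72* passed by the adjusted p only, with 23.6, 25.1 and 25.5 and 9.69, 9.44 and 18.8 CPM (log2 fold change -1.0, SE 0.23, adjusted p = 0.00357). The remaining array members called in Col-0 did not pass. *SAUR20* had 4.91, 7.81 and 8.5 CPM at 22 °C and 8.001, 12.7 and 13.5 at 28 °C, *SAUR21* had 11.8, 7.81 and 6.8 and 9.26, 14.2 and 17.8, and *SAUR24* had 8.35, 12.6 and 4.25 and 7.58, 11.6 and 15.4, with adjusted p of 0.136, 0.119 and 0.453. All 3 overlapped between the temperatures. On chromosome 1, *SAUR63* had 13.3, 13.9 and 8.93 and 11.8, 9.08 and 17.3 CPM, *SAUR62* had 11.8, 14.3 and 10.2 and 9.26, 15.98 and 12.5, *SAUR64* had 7.86, 8.82 and 6.38 and 3.37, 10.2 and 7.23, and *SAUR66* had 24.1, 23.1 and 17.4 and 16, 22.9 and 38.1, and their adjusted p ran from 0.563 to 0.932. *SAUR29* had 6.38, 14.9 and 7.65 and 8.42, 4.36 and 10.1 CPM and *SAUR13* had 12.8, 10.5 and 5.95 and 5.05, 11.3 and 13.97. *SAUR1*, with 3.44, 6.45 and 2.98 CPM at 22 °C and 2.11, 3.996 and 4.82 at 28 °C, was too low for the filter here. *SAUR32* rose by less than 2-fold, from 30.9, 24.4 and 24.2 to 36.2, 39.6 and 48.7 CPM (log2 0.66, adjusted p = 0.00635), and *SAUR36* had 11.8, 12.2 and 12.8 and 7.58, 12.3 and 13.01 CPM (log2 -0.15, adjusted p = 0.750).

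The warm *hy5* shoot libraries differed in the sums of these arrays. The *SAUR19* array summed to 41.3, 65.4 and 99.7 CPM in them and the chromosome 1 array to 68.6, 98.8 and 134, highest in replicate 3 and lowest in replicate 1 in both (the plot of summed levels). At 22 °C the sums were 38.8, 36.7 and 26.8 and 88.9, 97.1 and 66.7 CPM. In the warm Col-0 shoot too, both sums were lowest in replicate 1 and highest in replicate 3 (62.3 to 100.1 and 93.7 to 128 CPM). The calls in *hy5* depended on single libraries. Without *hy5* 28 °C replicate 3, 3 members were called (*SAUR12*, *SAUR19* and *SAUR72*), and *SAUR22* (log2 1.01, adjusted p = 0.168), *SAUR23* (1.07, 0.113) and *SAUR65* (0.79, 0.0750) were lost. Without 28 °C replicate 2, 2 were called (*SAUR19* and *SAUR65*), *SAUR22* did not pass the filter, *SAUR12* had an adjusted p of 0.0611 and *SAUR23* of 0.0551. Without 22 °C replicate 3, 2 were called (*SAUR19* and *SAUR22*), and *SAUR12*, *SAUR23* and *SAUR65* had adjusted p of 0.0645, 0.0850 and 0.0690. Without 22 °C replicate 2, 3 were called (*SAUR19*, *SAUR23* and *SAUR65*), and *SAUR12* and *SAUR22* had 0.0684 and 0.0530. *SAUR12* was also lost without 28 °C replicate 1 (0.0773) and with DESeq2 (0.0839), and *SAUR23* with a replicate block (0.0530). *SAUR19* was called in every one of the 13 settings. The 2 marker sums also differed in *hy5*, with photosynthetic markers between 63231 and 64427 CPM at 22 °C and between 52653 and 54615 at 28 °C, and root markers between 37.4 and 45.1 and between 52.3 and 64.6 CPM. Single photosynthetic markers went both ways here too. By the adjusted p alone *LHCA1* was higher at 28 °C (log2 0.42), and *RBCS1A* and *CAB1* were lower (-0.48 and -0.34). The part of the markers was not tested.

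**Figure D3:**
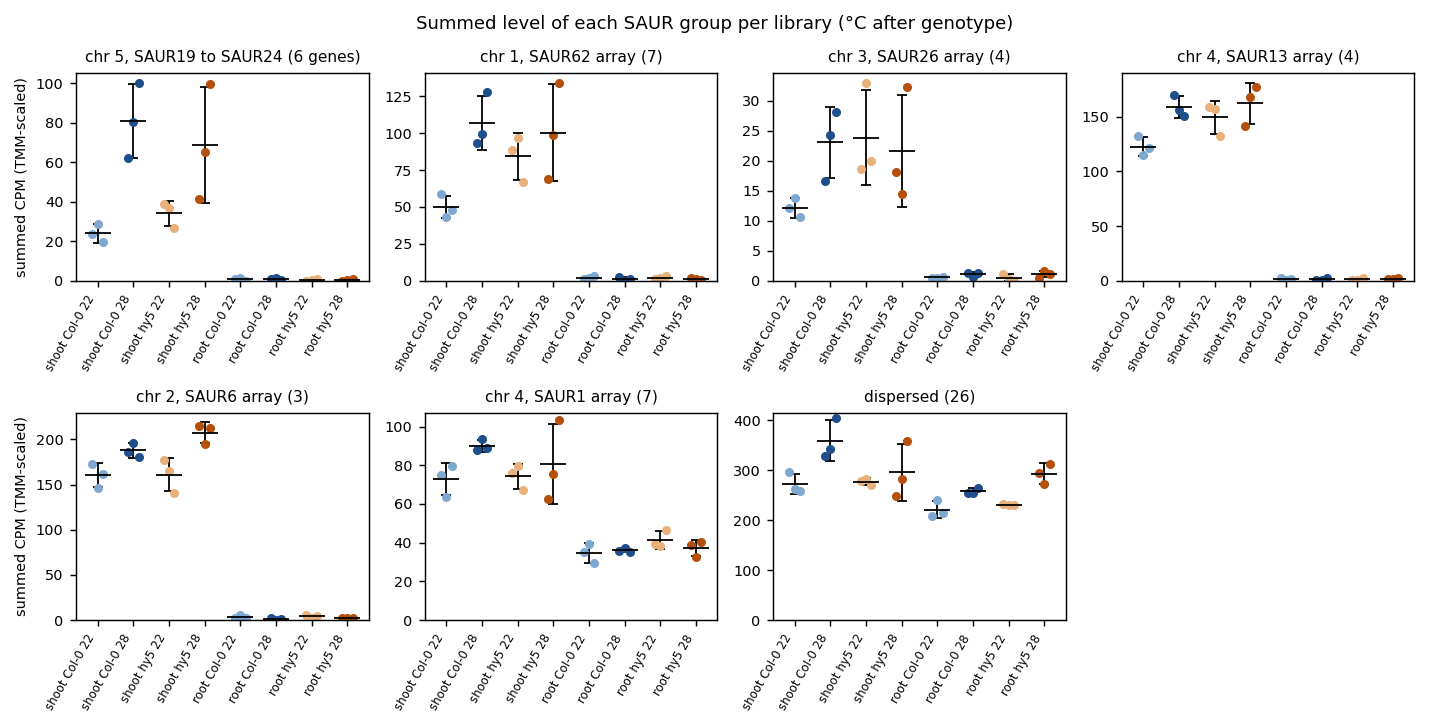
Summed level (CPM, linear axis) of each group of loci in every library, with the mean and SD of 3 per group; numbers in the panel titles count genes. The *SAUR19* array lies between 19.4 and 28.8 CPM in the Col-0 shoot at 22 °C and between 62.3 and 100.1 at 28 °C, is near 0 in all root libraries, and the dispersed genes are counted in both tissues.

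Whether the response differed between the genotypes was tested directly with the interaction of genotype and temperature. In the shoot, edgeR called none of 38 members at an adjusted p of at most 0.05 (1.03% of all genes), with 14 at an unadjusted p under 0.05, and DESeq2 also called none. For the unadjusted p no share of all genes is given, here or below, so such counts do not show an excess among members. The lowest adjusted p were those of *SAUR36* (difference of log2 fold changes, *hy5* minus Col-0, -1.46, SE 0.40, adjusted p = 0.0667), *SAUR63* (-1.39, SE 0.39, 0.0852), *SAUR78* (-0.73, SE 0.21, 0.0999) and *SAUR29* (-1.69, SE 0.50, 0.112). Of the 16 members that rose in Col-0, 15 were tested in *hy5*, where their median log2 fold change was 0.41 against 1.43 in Col-0 and 12 were above 0. All 15 had a negative interaction value, 9 of them with an unadjusted p under 0.05. These 15 were chosen by the Col-0 libraries that enter the interaction, so the direction is partly fixed by that choice. The count of calls rested on single libraries. It was 5 without *hy5* 28 °C replicate 3 (*SAUR29*, *SAUR36*, *SAUR63*, *SAUR66* and *SAUR78*), 2 without Col-0 28 °C replicate 1 (*SAUR63* and *SAUR78*), and 1 without Col-0 22 °C replicate 1 (*SAUR78*), Col-0 22 °C replicate 2 or Col-0 28 °C replicate 2 (*SAUR36* in both).

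Between the genotypes at one temperature, 1 member was called in each shoot comparison. At 22 °C *SAUR29* was higher in *hy5*, with 6.38, 14.9 and 7.65 CPM against 3.87, 4.29 and 4.22 in Col-0 (log2 fold change 1.26, SE 0.36, adjusted p = 0.0144). It was 1 of 33 tested, where 1.73% of all genes were called. Without *hy5* 22 °C replicate 2 its log2 difference was 0.76 (adjusted p = 0.363), and without Col-0 22 °C replicate 2 or 3 the adjusted p was 0.0585 or 0.0604. By the adjusted p alone 3 passed, against 9.35% of all genes. The others were *SAUR66*, with 24.1, 23.1 and 17.4 CPM in *hy5* and 12.5, 10.7 and 12.2 in Col-0 (log2 fold change 0.85, SE 0.22, adjusted p = 0.00608), and *SAUR72*, with 23.6, 25.1 and 25.5 and 31.8, 40.4 and 34.6 CPM (log2 fold change -0.53, SE 0.16, adjusted p = 0.0268). Of the 33, 24 had a higher fitted level in *hy5*, with a median log2 difference of 0.29 against 0.00 for all genes, and 13 had an unadjusted p under 0.05. No share of all genes is given beside the 24 or the 13. The chromosome 1 array summed to 84.2 ± 15.7 CPM in *hy5* and 49.98 ± 7.73 in Col-0 (SD, n = 3) without overlap. At 28 °C the member called was *SAUR36*, 1 of 36 tested against 1.82% of all genes, and 5.86% by the adjusted p alone, where it was again the one member. It had 7.58, 12.3 and 13.01 CPM in *hy5* and 28.2, 14.95 and 34.2 in Col-0 (log2 fold change -1.22, SE 0.28, adjusted p = 0.00951). The call was lost without Col-0 28 °C replicate 3 (log2 -0.96, adjusted p = 0.0678) or *hy5* 28 °C replicate 1 (-1.01, adjusted p = 0.0543), and *SAUR22* joined it without *hy5* 28 °C replicate 3.

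Many array members were counted in the shoot and hardly in the root. In all 4 root groups 26 members were at the floor, among them all 6 of the *SAUR19* array, 6 of the 7 of the chromosome 1 array, 3 of the 4 of the chromosome 3 array, 2 of the 4 of the *SAUR13* array, 2 of the 7 of the *SAUR1* array, 1 of the 3 on chromosome 2 and 6 of the 26 dispersed. Of these, 20 were above the floor in a shoot group, and 1 member was above it in a root group but at it in all shoot groups. In Col-0 at 22 °C, 3 of 24 members tested were higher in the root and 13 lower, against 17.4% and 24.1% of all genes. In *hy5* it was 5 and 20 of 31, against 17.3% and 24.3%. With library size alone in place of the scaling, the median over all genes moved by 0.48 (Col-0) and 0.69 (*hy5*) on the log2 scale, and the calls were 6 higher and 11 lower in Col-0 and 8 and 18 in *hy5*. *SAUR12* had 60 counts over the 3 Col-0 shoot libraries at 22 °C and 0 in the root. *SAUR63* had 48 counts in the shoot and 0 in the root. *SAUR21* had 41 and 1, a ratio of 32.8 with an exact 95% counting interval from 5.57 to 1327. *SAUR6* had 1.88, 6.0 and 2.68 CPM in the Col-0 root, against 158, 129 and 147 in the shoot (log2 fold change -5.3, SE 0.23, adjusted p = 1.82e-16). *SAUR71*, of the *SAUR41* subfamily like *SAUR72*, was counted in the shoot, with 15.05, 13.3 and 12.7 CPM in Col-0 at 22 °C and 1.88, 0 and 0 in the root. *SAUR41* (AT1G16510) itself had 8.599, 5.58 and 10.5 CPM in the shoot and 2.81, 6.0 and 2.01 in the root, with overlap. The opposite order was found in *SAUR37*, *SAUR55* and *SAUR5*. *SAUR37* (AT4G31320) had 50.2, 45.5 and 28.8 CPM in the Col-0 root at 22 °C and 1.72, 1.72 and 0.844 in the shoot (log2 fold change 4.85, SE 0.35, adjusted p = 4.05e-12). *SAUR55* (AT5G50760) had 21.6, 22.5 and 16.8 and 12.9, 10.3 and 6.75 CPM (log2 fold change 1.06, SE 0.27, adjusted p = 0.00143), and *SAUR5* (AT4G34810) was the other member higher in the root (log2 1.68, adjusted p = 6.78e-04). For *SAUR32* and *SAUR36* the log2 differences in Col-0 were 0.15 (SE 0.19) and 0.65 (SE 0.31), with adjusted p of 0.507 and 0.0674. In *hy5*, *SAUR36* was higher in the root without overlap, by less than 2-fold (0.76, SE 0.21, adjusted p = 0.00265). The 7 members that passed the filter in the root alone were *SAUR5*, *SAUR33* (AT3G61900), *SAUR35* (AT4G12410), *SAUR37*, *SAUR38* (AT2G24400), *SAUR69* (AT5G10990) and *SAUR70* (AT5G20810). *SAUR69* had 5.63, 8.999 and 3.35 CPM in the Col-0 root at 22 °C and 8.204, 10.2 and 16.1 at 28 °C, against 0.86, 1.29 and 0.844 and 1.38, 1.71 and 0.867 in the shoot. Its change with temperature in the root did not pass (log2 fold change 0.9, SE 0.37, adjusted p = 0.174). The test of whether the temperature response of Col-0 differed between the tissues called none of 41 members (edgeR, 2.78% of all genes), with 7 at an unadjusted p under 0.05. DESeq2 called 1, *SAUR6*. Only 15 members passed the filter in the Col-0 root comparison of temperature. For members at the floor in the root, such as the 6 of the *SAUR19* array, this test could not measure a root response. Their lack of a call therefore does not show equal responses in the tissues. Leaving out single libraries gave up to 2 calls, *SAUR6* and *SAUR36* without root 22 °C replicate 1, *SAUR6* and *SAUR32* without root 28 °C replicate 1, and *SAUR36* without shoot 22 °C replicate 2, shoot 28 °C replicate 2 or root 28 °C replicate 3.

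In the Col-0 root, 2 of 15 members tested changed with temperature, both downward, against 2.44% of all genes changed. *SAUR72* had 19.2, 25 and 18.8 CPM at 22 °C and 9.85, 6.81 and 11.4 at 28 °C (log2 fold change -1.17, SE 0.26, adjusted p = 0.00929), and so fell in the root as in the shoot. *SAUR30* (AT5G53590) had 9.38, 11 and 10.7 and 2.95, 4.34 and 5.37 CPM (log2 fold change -1.28, SE 0.36, adjusted p = 0.0381). Neither overlapped between the temperatures. By the adjusted p alone 3 passed, against 6.33% of all genes, the third being *SAUR78*, with 30.02, 33.5 and 24.8 CPM at 22 °C and 52.8, 57.9 and 50.6 at 28 °C (log2 fold change 0.86, SE 0.17, adjusted p = 0.00357). The *SAUR30* call was lost in 7 of 13 settings, among them without any one of 22 °C replicates 1, 2 and 3 and 28 °C replicates 1 and 2 (log2 from -1.36 to -1.09, adjusted p from 0.0624 to 0.147). That of *SAUR72* was lost without 22 °C replicate 2 (-1.02, adjusted p = 0.0865) or 28 °C replicate 2 (-0.99, adjusted p = 0.0695). Beside these changes, the photosynthetic markers in the Col-0 root summed to between 803 and 916 CPM at 22 °C and to between 438 and 577 at 28 °C, and the root markers to between 235 and 606 and between 566 and 668 CPM. Their part in the falls was not tested.

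In the *hy5* root no member of 17 was called by edgeR (1.73% of all genes were) or by DESeq2, with 6 at an unadjusted p under 0.05. *SAUR78*, with 47.3, 39.2 and 41.3 and 63.9, 53.4 and 68.3 CPM, and *SAUR32*, with 29.2, 26.2 and 32.6 and 47.5, 39.9 and 40.1 CPM, passed by the adjusted p alone (log2 0.53 and 0.54, adjusted p = 0.0180 and 0.0345), as did 6.05% of all genes. *SAUR72* had 11.5, 8.28 and 13.2 CPM at 22 °C and 14.5, 12.2 and 14.5 at 28 °C, and *SAUR30* had 6.65, 13.8 and 8.67 and 10.9, 16.1 and 20.2. Both means were thus higher in the warm, the reverse of Col-0, though neither change passed (adjusted p = 0.510 and 0.176). The direct test of the difference called these 2 of 19 members, against 1.41% of all genes. The difference of log2 fold changes was 1.53 for *SAUR72* (SE 0.35, adjusted p = 0.0182) and 1.94 for *SAUR30* (SE 0.46, adjusted p = 0.0205). Neither held without Col-0 22 °C replicate 2 (1.36 and 1.87, adjusted p = 0.0991 and 0.0860) or Col-0 28 °C replicate 2 (1.33 and 1.94, adjusted p = 0.0868 and 0.0609). *SAUR72* was also lost without *hy5* 22 °C replicate 2 (1.34, 0.0879) or 28 °C replicate 1 (1.47, 0.0600), and *SAUR30* without *hy5* 22 °C replicate 1 (1.72, 0.0517), Col-0 28 °C replicate 1 (1.75, 0.0670), or *hy5* 28 °C replicate 2 (1.92, 0.0584) or 3 (1.74, 0.0829). Among the 6 photosynthetic markers, 3 were called in the same interaction with the same sign (*RBCS1A* 1.13, *RBCS3B* 1.32 and *CAB1* 1.10, adjusted p = 0.00277, 0.00908 and 0.00406), and all 6 values were above 0. Of the 7 root markers tested, *CASP2* was called (-1.02, adjusted p = 0.00846). *IRT1* was above 0 without a call (1.22, adjusted p = 0.107), and the rest were below 0. In the *hy5* root the photosynthetic markers summed to between 392 and 469.9 CPM at 22 °C and to between 375 and 701 at 28 °C, and the root markers to between 411 and 505 and between 531 and 552 CPM. Their part in the difference was not tested.

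**Figure D4:**
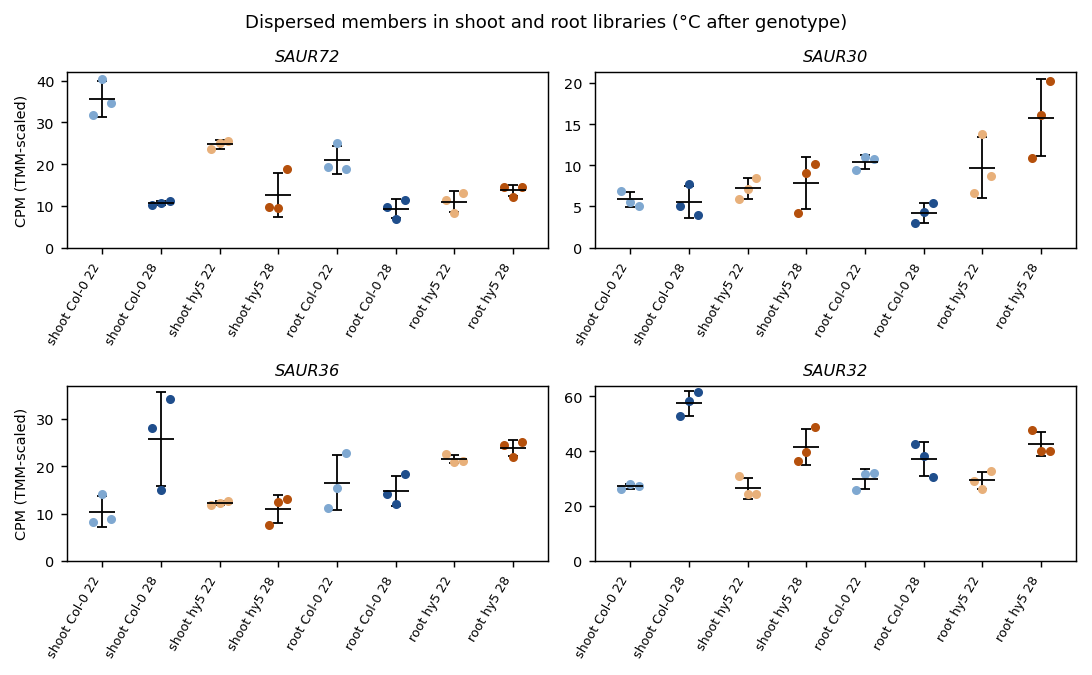
Levels (CPM, linear axis) of *SAUR72*, *SAUR30*, *SAUR36* and *SAUR32* in all 24 libraries by tissue, genotype and temperature in °C, with the mean and SD of 3. *SAUR72* falls at 28 °C in both Col-0 tissues, and *SAUR30* in the root at 28 °C lies between 2.95 and 5.37 CPM in Col-0 and between 10.9 and 20.2 in *hy5*.

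At 28 °C *SAUR30* was higher in the *hy5* root than in that of Col-0 in every library (log2 fold change 1.87, SE 0.31, adjusted p = 8.57e-05), the 1 call of 19 members against 4.84% of all genes, and it was called in every one of the 13 settings. *SAUR36* and *SAUR55* passed there by the adjusted p alone, as 12.3% of all genes did. *SAUR36* had 24.4, 22.05 and 25.2 CPM in *hy5* and 14.1, 12.1 and 18.3 in Col-0 (log2 fold change 0.69, SE 0.20, adjusted p = 0.0197), the opposite of its order in the warm shoot. *SAUR55* had 32.7, 30.6 and 39.7 and 19.03, 20.7 and 25.9 CPM (log2 fold change 0.65, SE 0.18, adjusted p = 0.0131). At 22 °C none of 14 members was called in the root by edgeR, where 5.78% of all genes were, or by DESeq2, with 5 at an unadjusted p under 0.05. *SAUR72* alone passed by the adjusted p (11.7% of all genes), lower in *hy5* (log2 fold change -0.95, SE 0.26, adjusted p = 0.0146). It was 2-fold lower and called without Col-0 22 °C replicate 1 or 3 or *hy5* 22 °C replicate 3, and *SAUR31* (AT4G00880) was called without Col-0 22 °C replicate 2. In the other root groups *SAUR32* had 25.8, 31.5 and 32.2 CPM in the Col-0 root at 22 °C and 42.7, 38.1 and 30.7 at 28 °C, and *SAUR36* had 11.3, 15.5 and 22.8 at 22 °C in Col-0 and 22.5, 20.98 and 21.2 in *hy5*. *SAUR30* in the shoot had 6.88, 5.58 and 5.06 and 5.08, 7.69 and 3.899 CPM in Col-0 and 5.89, 7.13 and 8.5 and 4.21, 9.08 and 10.1 in *hy5*, with overlap in each genotype. Root libraries held 0 to 5 counts of *SAUR1*, 0 to 4 of *SAUR29*, 0 to 2 of *SAUR13* and none of *SAUR12*.

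**Figure D5:**
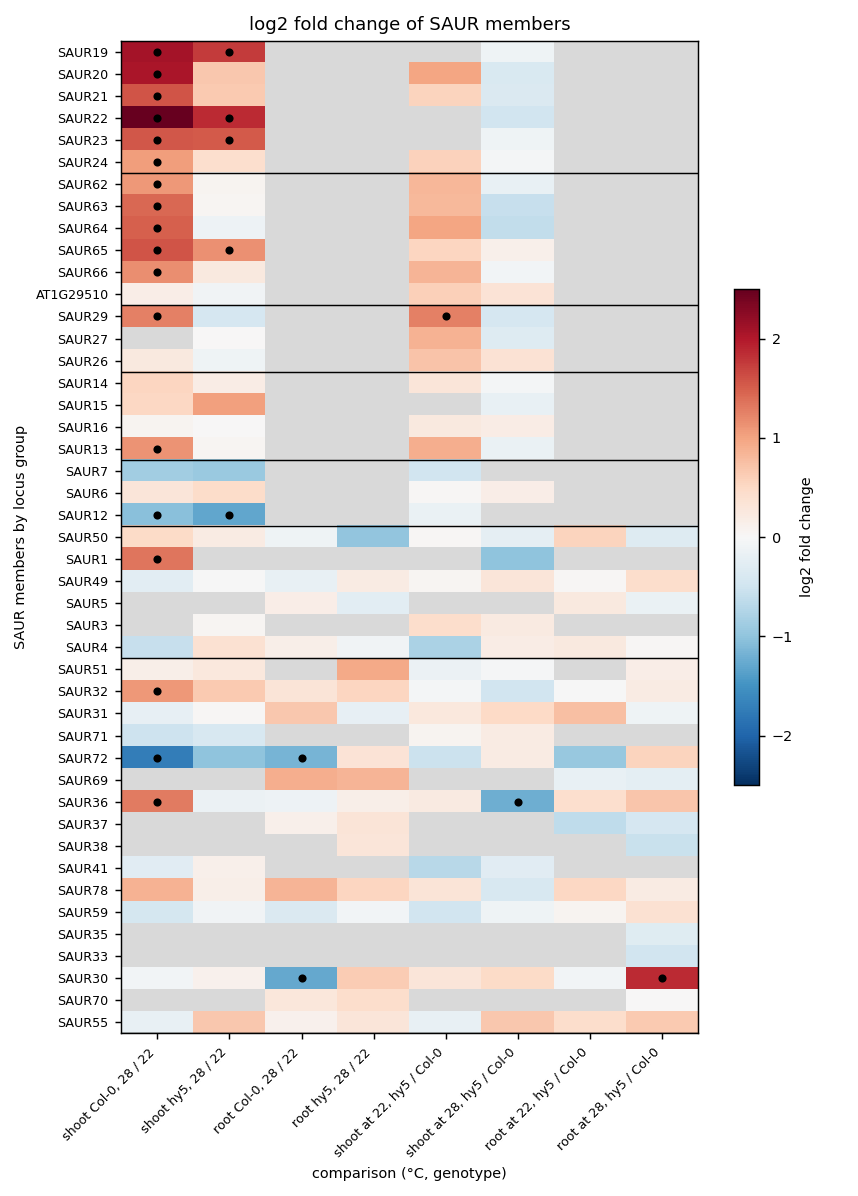
Log2 fold change (color scale) of the 45 members that passed the filter in at least 1 comparison, in rows by group of loci, for 4 comparisons of temperature and 4 of genotype in columns. Gray cells were not tested and dots mark an adjusted p of at most 0.05 with at least 2-fold; 16 of the 18 dots in the first column are rises, 14 of them in the arrays.

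*SAUR40* (AT1G79130) and *SAUR77* (AT1G17345), which the study examined, were too low for the filter in every comparison. *SAUR40* had 0 counts in each Col-0 root library at 22 °C and 3, 5 and 2 at 28 °C, and 4, 3 and 1 in the *hy5* root at 22 °C and 2, 0 and 3 at 28 °C. In the shoot it had 2, 0 and 2 counts at 22 °C and 1, 0 and 1 at 28 °C in Col-0, and 0, 0 and 1 and 0, 1 and 3 in *hy5*. No library held more than 5 reads of *SAUR40*. *SAUR77* had 0 counts in each Col-0 root library at 22 °C and 3, 3 and 4 at 28 °C, and 3, 1 and 1 in the *hy5* root at 22 °C and 1, 0 and 3 at 28 °C. In the shoot it had 2, 2 and 4 counts at 22 °C and 10, 3 and 9 at 28 °C in Col-0, and 4, 3 and 2 and 3, 7 and 7 in *hy5*. The Col-0 root libraries at 22 °C were also the shallowest. In the deeper libraries too, counts did not exceed 5 for *SAUR40* and 10 for *SAUR77*, so neither gene was tested with the filter in place. The other 10 members that passed in no comparison were *SAUR2*, *SAUR39*, AT1G29490, *SAUR9* (AT4G36110), *SAUR10* (AT2G18010), *SAUR11* (AT5G66260), *SAUR25* (AT4G13790), *SAUR28* (AT3G03830), *SAUR34* (AT4G22620) and *SAUR54* (AT1G19830). Their highest count in any library was 14, in *SAUR28*, whose neighbours *SAUR26* and *SAUR27* (AT3G03840) and *SAUR3* (AT4G34790) of the *SAUR1* array were tested in the *hy5* shoot and did not pass (log2 -0.11, 0.003 and 0.05).

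Genes around the family in its pathway were taken from fixed lists. None of the 6 auxin receptor genes and none of the 5 activating ARF genes was called for temperature in the Col-0 shoot, and 1 of each passed by the adjusted p alone, *AFB4* (log2 0.76, adjusted p = 0.0239) and *ARF8* (-0.73, adjusted p = 0.0129). Of 9 PP2C.D phosphatase genes, 1 rose and 2 were lower by the adjusted p alone. The one that rose, AT5G02760, had 23.2, 21.5 and 18.1 CPM at 22 °C and 44.3, 51.7 and 60.7 at 28 °C (log2 1.32, SE 0.16, adjusted p = 1.05e-06), and 32.4, 32.6 and 29.8 and 25.7, 30.9 and 35.2 CPM in *hy5*. In *hy5* the groups overlapped, and the interaction was called (-1.37, SE 0.23, adjusted p = 0.00210). Of 11 plasma membrane H+-ATPase genes 6 were tested in the Col-0 shoot and none was called, with 1 lower by the adjusted p alone. The 11 genes summed to between 982 and 1063 CPM at 22 °C and to between 877 and 919 at 28 °C there. Among 8 upstream factors (*HY5*, 5 PIF genes, *BZR1* and *BES1*), *PIF4* rose in both shoots. It had 31.4, 27.1 and 22.8 CPM at 22 °C and 82.1, 87.2 and 106 at 28 °C in Col-0 (log2 1.76, SE 0.14, adjusted p = 7.52e-10), and 40.3, 44.1 and 23.4 and 82.5, 72.6 and 97.8 in *hy5* (log2 1.22, SE 0.17, adjusted p = 1.23e-05). By the adjusted p alone, *HY5* was lower in the warm Col-0 and *hy5* shoots (log2 -0.72 and -0.76, adjusted p = 0.00593 and 0.0281). *PIF3* was higher in both (0.88 and 0.75, 2.59e-04 and 0.0140), *PIF5* higher in Col-0 (0.73, 7.03e-05) and *BES1* lower in *hy5* (-0.47, 0.00191). In the root none of the genes tested from these 5 lists was called for temperature in either genotype. The 5 PIF genes and AT5G02760 were too low to be tested there, and only 8 of the 11 H+-ATPase genes were tested.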

How the data were processed

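RNA of shoot and root samples was measured by 3′Tag-Seq in 24 libraries, 3 biological replicates in each of 8 groups taken from the sample titles. The deposited values were whole-number counts per gene that the authors made with FastQC, HISAT2, the TAIR10 genome and HTSeq. Their versions, the strand setting and the treatment of reads matching several genes are not given in the sources used here. The authors then used edgeR.

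For the present text the counts were analysed in R 4.3.3 with edgeR 4.0.16 (limma 3.58.1). Genes were kept by filterByExpr (minimum count 10, minimum total 15) within each comparison, libraries were scaled by TMM, and the quasi-likelihood F-test was followed by Benjamini-Hochberg adjustment over all genes kept. A call required an adjusted p of at most 0.05 and at least 2-fold, and for interactions the adjusted p alone. All p-values given with member genes come from these edgeR fits unless DESeq2 1.42.0 is named. SE is the log2 fold change divided by the square root of F and is approximate. CPM were scaled over all 24 libraries. Sequence work used Python 3.11.15 with Biopython 1.88 and the TAIR10.1 assembly, whose gene models give all positions. Fits were tested on simulated data. The planted changes lay in well-counted genes and were scored by the adjusted p alone, so calls at the low counts of many members were not covered.

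Total counts of 1212281 to 3781032 limit precision for low genes, and intervals and floors cover counting error only. Replicates of a group differed by more than sampling noise (chi-square per degree of freedom from 1.45 to 4.25 over 24 pairs).

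Members called in a temperature or genotype comparison or a genotype by temperature interaction are given with every library of that comparison, *SAUR40* and *SAUR77* always, and the rest by ranges and counts. The members and lists were chosen with earlier results of these data known. Alternatives were each library left out in turn, DESeq2, a block for the replicate number, scaling by library size, and no fold cutoff. Others were either no filter or one on the mean count (10), and a joint fit. The joint fit took all groups of the tissue for temperature and genotype, and all groups of the genotype for tissue. For interactions it took all groups of the series. Each alternative was fitted over the whole gene table, and its results were taken for member genes only. No set test was run.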

Additional observations from a re-analysis of the deposited data

Results flagged for a closer look

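The change with temperature differed between the genotypes in the root for *SAUR72* and *SAUR30* by the test of the interaction itself. The *hy5* minus Col-0 difference of log2 fold changes was 1.53 for *SAUR72* and 1.94 for *SAUR30* (edgeR, adjusted p = 0.0182 and 0.0205). Both genes were lower at 28 °C in each Col-0 root library, whereas in *hy5* the groups overlapped. In the same test 3 of 6 photosynthetic markers were called with the same sign (*RBCS1A* 1.13, *RBCS3B* 1.32 and *CAB1* 1.10). The root marker *CASP2* was called with the opposite sign (-1.02). Another root marker, *IRT1*, had the same sign as the 2 members without a call (1.22), and the other root markers tested were below 0. The part of the markers in the difference was not tested.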

How the results depend on the processing

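Of 399 values of 30 named results under the alternatives, 342 kept their direction and side of the threshold, 57 kept their direction but lost the call, and 0 changed direction. Without the fold cutoff, 8 members were called in the *hy5* shoot, 2 in the *hy5* root, and 3, 1 and 3 between the genotypes in the shoot at 22 °C, the root at 22 °C and the root at 28 °C. DESeq2 called 1 member in the Col-0 root, 0 between the genotypes in the shoot at 22 °C and 1 in the Col-0 interaction of tissue and temperature. Without a filter on low counts, 37 and 39 members were called between tissues in Col-0 and *hy5*, 5 in the shoot interaction and 2 in that of tissue and temperature. The joint fit called 32 between the tissues of Col-0 and 2 in the tissue interaction. No share of all genes is given here beside the counts under the alternatives, so they do not show an excess among members. Libraries sharing a replicate number had correlations of deviations from -0.063 to 0.142, highest in the shoot at 28 °C between the genotypes. With the replicate block 1 member was called in the Col-0 root, 2 in the shoot interaction and 1 in the tissue interaction. Leaving out 1 library gave 14 to 18 calls in the Col-0 shoot, 2 to 6 in the *hy5* shoot, 0 to 2 in the Col-0 root and 0 to 0 in the *hy5* root. Between the genotypes it gave 0 to 3 (shoot, 22 °C), 0 to 2 (shoot, 28 °C), 0 to 1 (root, 22 °C) and 1 to 1 (root, 28 °C), and between tissues 14 to 20 in Col-0 and 24 to 30 in *hy5*. The interactions had 0 to 5 calls in the shoot, 0 to 2 in the root and 0 to 2 for tissue and temperature. The causes were not tested. Without a filter and in the joint fit more members are tested, but whether the added calls came from these members was not examined. The Col-0 root libraries at 22 °C had the fewest counts, 1212281 to 1828946.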
